A study of Mus musculus with 16 samples.

Results

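The 10 genes described here encode Toll-like receptors and the proteins they work with in mouse lung: Tlr1, Tlr2, Tlr3, Tlr4, Tlr6, Tlr7, Tlr8, the co-receptors Cd14 and Ly96 (MD-2), and the adaptor Myd88. They were chosen as a list of gene names, and each was read from the probe set with a single gene symbol and the highest mean over the 16 arrays, out of 18193 genes so represented. All 10 had a probe set, and no filter on low signals was applied. RNA came from whole lungs of female mice of the inbred BALB/c strain and was measured on 1-colour Affymetrix mouse 430 2.0 arrays, in 4 groups of 4. Non-pregnant or pregnant mice (gestation day 14) received a single dose of 50 ug of titanium dioxide (TiO2) particles suspended in phosphate-buffered saline (PBS), or PBS alone, into the nose under light halothane. The particles had been baked to remove endotoxin, and RNA was taken 19 h after exposure. The labels do not say whether each sample is 1 mouse, so p-values measure the spread between these samples. The question of the study was if a pregnant lung answers inert particles, to which lungs respond little, in another way.

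Toll-like receptors recognise molecules of microbes and of damaged cells and start inflammation. Tlr1, Tlr2, Tlr4 and Tlr6 sit at the cell surface, where Tlr2 pairs with Tlr1 or Tlr6 to bind lipoproteins and Tlr4 binds bacterial endotoxin with Ly96 after Cd14 has handed it over; Tlr3, Tlr7 and Tlr8 read nucleic acids inside endosomes. Myd88 carries the signal of these receptors, except Tlr3, and of the interleukin 1 receptors, to NF-kB and the interferon regulatory factors. In lung the genes are active in macrophages, neutrophils, other leukocytes and, for several of them, epithelium.

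Levels are given as log2(quantile-normalized intensity + 16), and a difference is the difference of group means on it; adding 16 makes the differences of weak signals smaller than they are. Nothing was compared between probe sets of different genes. All 8 markers of lung epithelium and endothelium were above the array median on all arrays, and their summed intensity was 50400 to 55800. The array medians of the deposited intensities ran from 32 to 56.5. In non-pregnant PBS replicates 3 and 4 the summed intensity of 10 thymocyte and T cell markers was 4630 and 5880, against 444 to 1110 in the other samples. Pregnant TiO2 replicate 2 nearly lacked the squamous epithelium markers (90.5 summed over 5 genes, against 7190 to 16300 in the other samples). Its striated muscle sum was 505, against 7860 to 16000 in the other samples. The lymph node venule marker Glycam1 was at 1.74 and the fat marker sum 2310, against 1490 to 1720 and 9510 to 11300 in the rest of its group. Non-pregnant TiO2 replicates 1 and 4 also had little Glycam1 (1.64 and 8.25) and low fat sums (1960 and 1350), and are not counted as unlike in tissue content. Non-pregnant PBS replicate 2 is called pregnant in one label and non-pregnant in another, and stands with the non-pregnant mice because the design gives 4 samples a group. The label of pregnant PBS replicate 4 leaves out the DNase step that the other labels give. Some results are also given without non-pregnant PBS replicates 3 and 4 and pregnant TiO2 replicate 2, called the samples of unlike tissue content. Some are also given without the sample of conflicting labels or with it counted as pregnant PBS. Values given alone come from the fit of all 16 samples.

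Calls among the 10 genes came in the pregnancy comparison alone. With both exposures averaged, 8 of the 10 lay higher in the 8 pregnant samples than in the 8 non-pregnant ones, and Myd88 and Tlr1 rose past the threshold (limma, Benjamini-Hochberg adjusted p under 0.05 over all genes). Across all genes 2.30% were called in this comparison, 1.76% were called as higher, and 53.5% lay above 0. The median difference of the 10 genes was 0.25 log2, against 0.01 for all genes. At an unadjusted p under 0.05, 6 of the 10 lay higher and 0 lower, against 9.65% and 5.79% of all genes. The differences ran from −0.12 for Tlr4 to 0.54 for Tlr1.

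**Figure D1:**
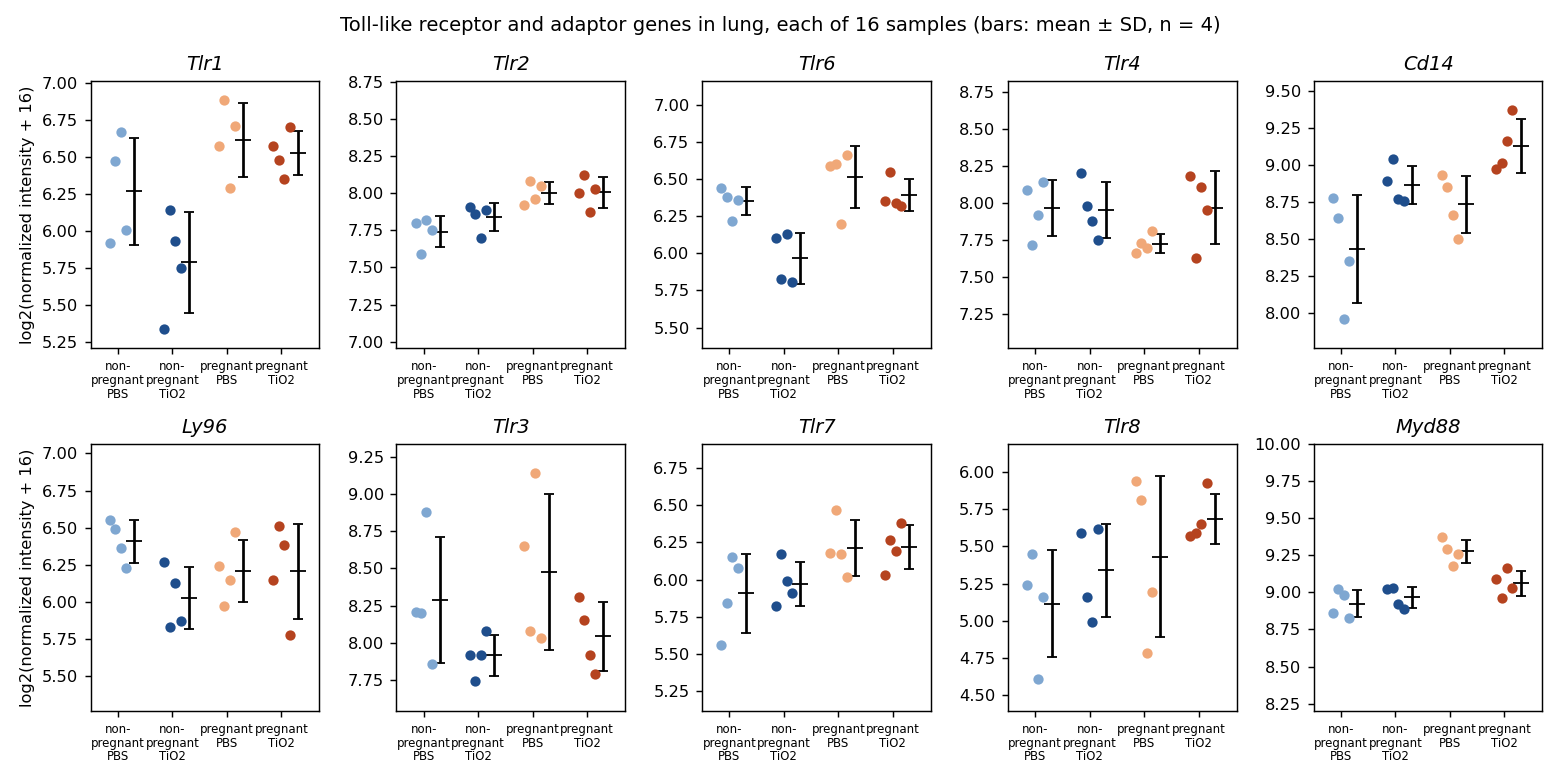
Level of each gene, log2(normalized intensity + 16), in each of the 16 samples by group; points are samples and bars the mean ± SD of 4. The 4 pregnant PBS samples of Myd88 (9.18 to 9.37) lie above all 12 others, and the 4 non-pregnant TiO2 samples of Tlr6 (5.81 to 6.13) lie below all others.

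Myd88 was highest in pregnant mice after PBS. Its level was 8.86, 9.02, 8.98 and 8.83 in non-pregnant PBS replicates 1 to 4, and 9.02, 9.03, 8.92 and 8.89 in non-pregnant mice after TiO2. It was 9.37, 9.29, 9.18 and 9.26 in pregnant mice after PBS, and 9.09, 8.96, 9.16 and 9.03 in pregnant mice after TiO2. The pregnant PBS samples overlapped with no other group, while the other 3 groups overlapped with each other. Averaged over exposures Myd88 rose by 0.22 ± 0.05 log2 with pregnancy (SE, 8 samples against 8, 1.17-fold, limma adjusted p = 0.045). After PBS alone the difference was 0.35 ± 0.08 (1.27-fold, limma adjusted p = 0.062), and after TiO2 alone 0.10 ± 0.08 (adjusted p = 0.581).

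The promoter of Myd88 is shown because this gene gave the smallest p of the 10. The 250 bases before its start (RefSeq, GRCm38.p6, chr9:119340019-119340268, minus strand, 5′ to 3′) hold 1 match to the core of the interferon-stimulated response element (GAAA and again GAAA with any 2 bases between), at 40 to 31 bases before the start. It overlaps a match to the interferon-gamma activated site core, TTCNNNGAA, at 46 to 38 bases. Capitals mark both:
Myd88: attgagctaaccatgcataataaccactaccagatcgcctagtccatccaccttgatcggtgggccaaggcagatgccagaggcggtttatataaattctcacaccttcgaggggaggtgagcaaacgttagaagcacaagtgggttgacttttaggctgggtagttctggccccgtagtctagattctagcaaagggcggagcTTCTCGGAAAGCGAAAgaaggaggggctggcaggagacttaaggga
Searched on both strands, the first core was in 2.98% and the second in 7.02% of 32851 windows of that length before gene starts. A match is a description of the letters of the reference genome, not of binding, and the reference strain is not BALB/c.

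Myd88 moved with neutrophil markers. Over the 16 samples its level correlated with the mean of 14 neutrophil markers at Pearson's r = 0.87, and at 0.49 once group means were removed; the points share arrays and normalization. The second value was not particular to neutrophil markers. With group means removed Myd88 was at 0.59 with fat markers and 0.45 with Glycam1 (0.46 and 0.48 over the 16 samples). The 3 genes of the table most like Myd88 over these samples were S100a8, a calcium-binding protein abundant in neutrophils and on the marker list (r = 0.89), Litaf (0.89) and the guanine deaminase Gda (0.88). The summed intensity of the neutrophil markers was 11700 to 17100 in pregnant mice after PBS and 8690 to 11300 after TiO2. In non-pregnant mice it was 5280 to 6770 after PBS and 5090 to 7720 after TiO2. With pregnancy, averaged over exposures, 9 of the 14 were called as higher, against 1.76% of all genes. Among those called were S100a9 (1.31 log2) and the growth factor receptor Csf3r (0.96). Of the 14, 12 lay above 0, and the lowest difference was −0.33. Elane and Mpo were never above the array median. The part of the neutrophil markers in the Myd88 difference was not tested. In whole lung, more cells of a type and more RNA per cell cannot be told apart.

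**Figure D2:**
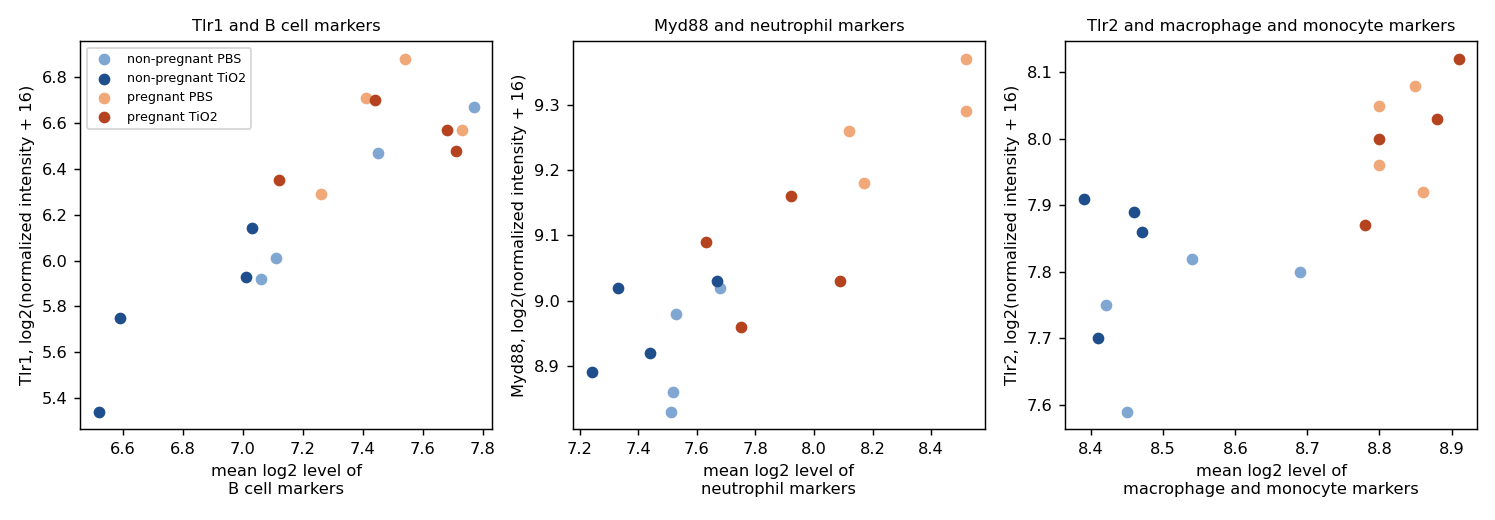
Level of Tlr1, Myd88 and Tlr2 against the mean log2 level of B cell, neutrophil, and macrophage and monocyte markers; each point is 1 of the 16 samples, coloured by group. Pearson's r is 0.90, 0.87 and 0.76 in that order.

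Tlr1 lay higher in pregnant mice and was lowest in non-pregnant mice after TiO2. Its level was 5.92, 6.47, 6.67 and 6.01 in non-pregnant mice after PBS and 5.34, 6.14, 5.93 and 5.75 after TiO2. The pregnant samples were at 6.57, 6.88, 6.29 and 6.71 after PBS and at 6.57, 6.48, 6.35 and 6.70 after TiO2. After PBS the groups overlapped, through non-pregnant PBS replicates 2 and 3; after TiO2 they did not. Averaged over exposures Tlr1 rose by 0.54 ± 0.13 log2 with pregnancy (SE, 8 against 8, 1.45-fold, limma adjusted p = 0.0478). The difference was 0.74 ± 0.19 after TiO2 (1.67-fold, adjusted p = 0.0888) and 0.34 ± 0.19 after PBS (adjusted p = 0.583).

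The calls of Tlr1 and Myd88 lie close to the threshold. Leaving out each array in turn kept the Tlr1 call in 3 of 16 fits (limma adjusted p 0.0188 to 0.0937) and the Myd88 call in 4 of 16 (0.0368 to 0.0959), with differences of 0.46 to 0.61 and 0.21 to 0.24. Without the 3 samples of unlike tissue content the differences were 0.58 (adjusted p = 0.0513) and 0.23 (0.0654). Without the sample of conflicting labels they were 0.57 (adjusted p = 0.0555) and 0.24 (0.042), and with it counted as pregnant PBS, 0.56 (0.0948) and 0.21 (0.144).

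Tlr1 moved with B cell markers. Its level correlated with the mean of 8 B cell markers at r = 0.90 over the 16 samples, and at 0.77 with group means removed. The 3 genes most like it were Cd79b, a chain of the B cell receptor complex that is on the list, the B cell transcriptional co-activator Pou2af1 and the B cell scaffold protein Bank1, each at r = 0.93. The summed intensity of the B cell markers was 1130 to 2140 in non-pregnant mice after PBS and 724 to 1220 after TiO2, and 1450 to 2050 and 1210 to 1990 in pregnant mice. The non-pregnant TiO2 sample with the lowest sum (724) also had the lowest Tlr1 (5.34). Its Glycam1 (1.64) and fat sum (1960) were low too. Replicate 4 of that group followed in B cell sum (817) and Tlr1 (5.75), with Glycam1 of 8.25 and a fat sum of 1350. Pregnant TiO2 replicate 2 went the other way, with Glycam1 of 1.74, a fat sum of 2310 and Tlr1 of 6.48. Over the 16 samples Tlr1 was at r = 0.69 with fat markers and 0.67 with Glycam1 (0.45 and 0.47 with group means removed). With pregnancy, averaged over exposures, the median of the 8 B cell markers was 0.57 log2. At an unadjusted limma p under 0.05, 7 lay higher and 1 lower, against 9.65% and 5.79% of all genes. The complement receptor Cr2 alone was called (0.73 log2, limma adjusted p = 0.0218), where 1.76% of all genes were called as higher. Pax5 was never above the array median. The part of the B cell markers, the fat markers and Glycam1 in the Tlr1 difference was not tested.

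Tlr2 and Tlr6, its alternative partner to Tlr1 in lipoprotein recognition, lay higher in pregnant mice without passing the threshold. Tlr2 was at 7.80, 7.59, 7.82 and 7.75 in non-pregnant mice after PBS and at 7.91, 7.86, 7.70 and 7.89 after TiO2. Pregnant samples were at 7.92, 8.08, 7.96 and 8.05 after PBS and at 8.00, 8.12, 7.87 and 8.03 after TiO2. No pregnant PBS sample was as low as any non-pregnant PBS sample. The difference was 0.26 ± 0.08 log2 after PBS (SE, 4 against 4, limma adjusted p = 0.254), 0.16 ± 0.08 after TiO2 (0.357) and 0.21 ± 0.06 averaged (0.0761, 95% interval 0.09 to 0.34). With the sample of conflicting labels counted as pregnant PBS the difference after PBS was 0.13 (adjusted p = 0.739). Tlr2 correlated with the mean of 16 macrophage and monocyte markers at r = 0.76 (0.49 with group means removed). With dendritic cell markers it was at 0.62 (0.44 with group means removed). The summed intensity of the macrophage and monocyte markers was 15400 to 17700 in non-pregnant mice, over both exposures, and 17900 to 19500 in pregnant mice. With pregnancy, averaged over exposures, 5 of the 16 were called as higher, against 1.76% of all genes, and all 16 lay above 0. Among those called were the scavenger receptor Marco (1.47 log2) and the lysosomal protein Cd68 (0.51). Each of the 16 was above the array median in some sample. Their part in the Tlr2 difference was not tested.

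Tlr6 stood apart in non-pregnant mice after TiO2, where it was above the array median on 2 of 4 arrays. It was at 6.44, 6.38, 6.22 and 6.36 in non-pregnant mice after PBS and at 6.10, 5.83, 6.13 and 5.81 after TiO2. The pregnant samples lay at 6.59, 6.60, 6.20 and 6.66 after PBS and at 6.35, 6.55, 6.34 and 6.32 after TiO2. Only the non-pregnant TiO2 samples lay apart from the rest; the other 3 groups overlapped. Between pregnancy states the difference was 0.42 ± 0.11 log2 after TiO2 (limma adjusted p = 0.097), 0.16 ± 0.11 after PBS (0.689) and 0.29 ± 0.08 averaged (0.0683, 95% interval 0.13 to 0.46). Without pregnant PBS replicate 3 the averaged difference of Tlr6 was 0.34 and passed (limma adjusted p = 0.0209).

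Stretches of 30 bases before the starts of Tlr1, Tlr2 and Tlr6 are shown to set the 3 lipoprotein receptor genes side by side (RefSeq, GRCm38.p6, all on the minus strand, 5′ to 3′, motif matches in capitals). They lie at chr5:64933563-64933592, chr3:83841761-83841790 and chr5:64959260-64959289:
Tlr1: attaaatgttgGAGGAAGTaggagcttgaa
Tlr2: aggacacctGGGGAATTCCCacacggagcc
Tlr6: ctattctTTTCTCTTTCACTTTCtgtttga
The Tlr1 match is to a core of PU.1, GAGGAAGT, 23 to 16 bases before the start, found in 2.44% of the windows. The Tlr2 capitals are overlapping matches to an NF-kB motif, at 173 to 163 bases, found in 7.25%. The Tlr6 capitals are 2 overlapping matches to the interferon-stimulated core on the other strand, at 116 to 107 and 110 to 101 bases. Tlr1 and Tlr6 are neighbours on chromosome 5, with 0 genes starting between them, and their r was 0.62 over the 16 samples and −0.07 with group means removed.

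After PBS, 2 of the 10 genes (Tlr2 and Myd88) were higher in every pregnant than in every non-pregnant sample, as were 2.92% of all genes. After TiO2, 2 of the 10 (Tlr1 and Tlr6) were, as were 7.48% of all genes. In neither comparison was any of the 10 called by limma, where 0.506% of all genes were called after PBS and 0.775% after TiO2; at an unadjusted p under 0.05, 3 of the 10 lay higher after PBS (5.54% of all genes) and 2 after TiO2 (10.1%). The comparisons share samples with the average over exposures and are not independent of it.

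**Figure D3:**
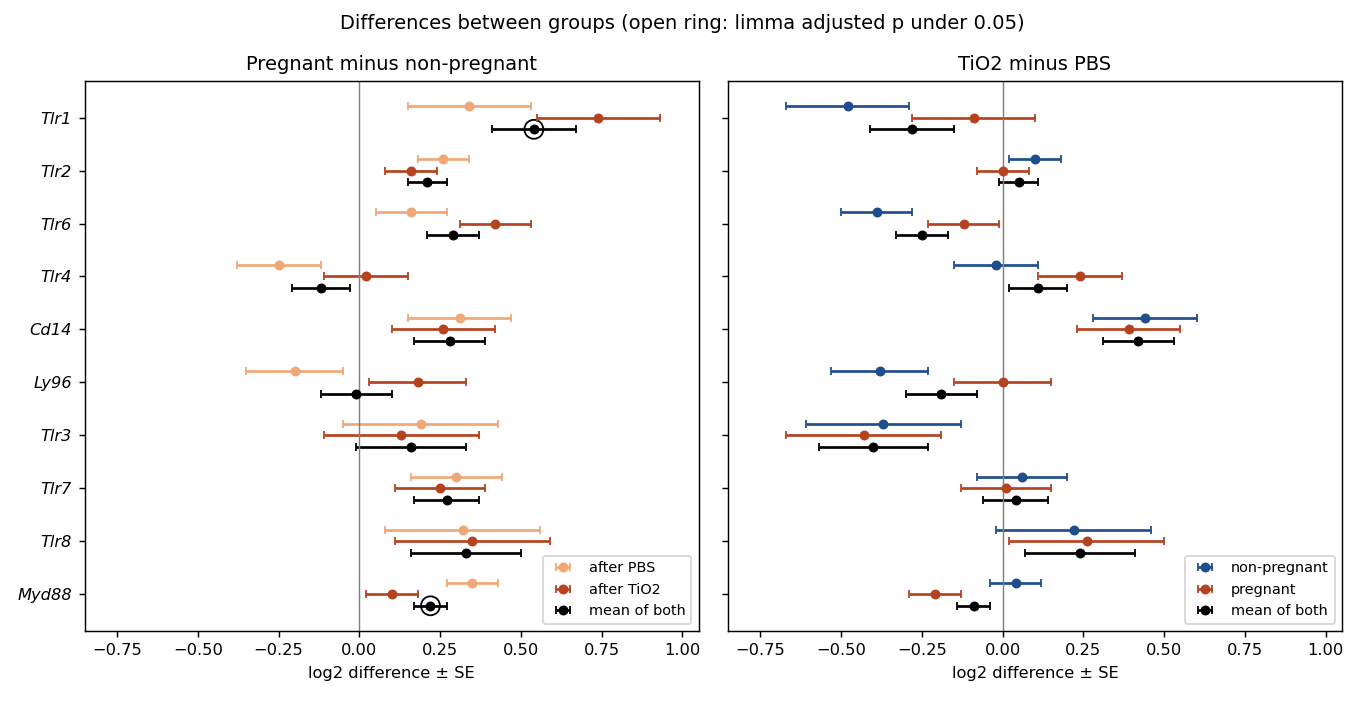
Differences of group means (log2 ± SE) of the 10 genes, pregnant minus non-pregnant on the left and TiO2 minus PBS on the right; colours give the subset and black the average over both. Rings mark limma adjusted p under 0.05, which Tlr1 (0.54) and Myd88 (0.22) reach on the left and none on the right.

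Of the endosomal receptors, Tlr7, which reads single-stranded RNA, lay higher in pregnant mice after either exposure without being called. It was at 5.56, 5.84, 6.15 and 6.08 in non-pregnant mice after PBS and at 5.82, 6.17, 5.99 and 5.91 after TiO2. In pregnant mice it was at 6.18, 6.47, 6.17 and 6.02 after PBS and at 6.03, 6.27, 6.19 and 6.38 after TiO2. The groups overlapped in each comparison. The difference was 0.30 ± 0.14 log2 after PBS (limma adjusted p = 0.473), 0.25 ± 0.14 after TiO2 (0.401) and 0.27 ± 0.10 averaged (0.167, 95% interval 0.07 to 0.48). Without the samples of unlike tissue content the difference after PBS was 0.51 (adjusted p = 0.14).

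Tlr8, the neighbour of Tlr7 on the X chromosome, was above the array median on 1 of the 16 arrays, so its levels are close to background. They ran from 4.61 to 5.45 in non-pregnant mice after PBS, from 4.99 to 5.62 after TiO2, from 4.78 to 5.94 in pregnant mice after PBS and from 5.57 to 5.93 after TiO2. The averaged difference with pregnancy was 0.33 ± 0.17 log2 (limma adjusted p = 0.37), and the groups overlapped within each exposure. Without the samples of unlike tissue content the difference after PBS was 0.08, against 0.32 ± 0.24 with them.

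Tlr3, the receptor of double-stranded RNA, which signals without Myd88, varied widely within the PBS groups. It was at 8.21, 8.20, 8.88 and 7.86 in non-pregnant mice after PBS and at 7.92, 7.74, 7.92 and 8.08 after TiO2. Those of pregnant mice were at 8.65, 8.08, 9.14 and 8.03 after PBS and at 8.31, 8.15, 7.92 and 7.79 after TiO2. One or 2 samples of each PBS group stood high, and all groups overlapped. Averaged over exposures the difference with pregnancy was 0.16 ± 0.17 log2 (limma adjusted p = 0.709). After PBS alone it was 0.19 ± 0.24, and −0.03 without pregnant PBS replicate 3; after TiO2 it was 0.13 ± 0.24 (limma adjusted p = 0.843).

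Of the endotoxin receptor genes, Tlr4 and Ly96 gave no call with pregnancy, and each lay below 0 after PBS and above 0 after TiO2. Tlr4 was at 8.09, 7.72, 7.92 and 8.14 in non-pregnant mice after PBS and at 8.20, 7.98, 7.88 and 7.75 after TiO2. In pregnant mice it was at 7.66, 7.73, 7.70 and 7.81 after PBS, the narrowest group, and at 8.18, 7.63, 8.11 and 7.95 after TiO2. The ranges overlapped. The difference with pregnancy was −0.25 ± 0.13 log2 after PBS (limma adjusted p = 0.557), 0.02 ± 0.13 after TiO2 (0.974) and −0.12 ± 0.09 averaged (0.60, 95% interval −0.31 to 0.08).

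Ly96, the endotoxin-binding partner of Tlr4, was at 6.55, 6.49, 6.36 and 6.23 in non-pregnant mice after PBS and at 6.27, 5.83, 6.13 and 5.87 after TiO2. Levels in pregnant mice were 6.24, 5.97, 6.15 and 6.47 after PBS and 6.15, 6.51, 6.38 and 5.78 after TiO2. Its averaged difference with pregnancy was −0.01 ± 0.11 log2 (limma adjusted p = 0.977, 95% interval −0.24 to 0.22). After PBS it was −0.20 ± 0.15 (adjusted p = 0.737) and after TiO2 0.18 ± 0.15 (0.613).

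Cd14 lay higher both with pregnancy and after TiO2, and neither difference was called. It was at 8.78, 8.64, 7.96 and 8.35 in non-pregnant mice after PBS and at 8.89, 9.04, 8.77 and 8.76 after TiO2. In pregnant mice it was at 8.93, 8.85, 8.66 and 8.50 after PBS and at 8.97, 9.01, 9.16 and 9.37 after TiO2. The lowest 2 values are those of non-pregnant PBS replicates 3 and 4, the samples with thymus transcripts. Over the 16 samples Cd14 correlated with the mean of the thymocyte markers at r = −0.67 (−0.61 with group means removed). It was at 0.66 with lung epithelium and endothelium markers (0.43 with group means removed). With neutrophil markers it was at 0.25 (0.63 with group means removed). With pregnancy the averaged difference was 0.28 ± 0.11 log2 (limma adjusted p = 0.229), and 0.16 without the samples of unlike tissue content; after PBS it was 0.31 ± 0.16 (0.552), and 0.03 without these.

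TiO2 gave no call among the 10 genes in either pregnancy state. In non-pregnant mice limma called 0.00550% of all genes, which is 1 gene, and in pregnant mice 0 of 18193. At an unadjusted p under 0.05, 1 of the 10 lay higher and 3 lower in non-pregnant mice, against 3.00% and 5.49% of all genes. In pregnant mice 1 lay higher and 1 lower, against 3.00% and 2.92% of all genes. The median difference of the 10 genes was 0.01 log2 in non-pregnant and 0.00 in pregnant mice.

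Cd14 had the largest upward difference of the 10 after TiO2. It was 0.44 ± 0.16 log2 in non-pregnant mice (SE, 4 against 4, 1.36-fold, unadjusted p = 0.0141, limma adjusted p = 0.467). In pregnant mice it was 0.39 ± 0.16 (1.31-fold, unadjusted p = 0.025, adjusted p = 0.832), and every TiO2 sample lay above every PBS sample, as for 1.86% of all genes. The average over both states was 0.42 ± 0.11, with all 8 TiO2 samples above the PBS median (limma adjusted p = 0.563, 95% interval 0.18 to 0.65). Without the samples of unlike tissue content the difference was 0.16 in non-pregnant mice, 0.43 in pregnant mice and 0.30 averaged (limma adjusted p 0.788, 0.458 and 0.447). The genes most like Cd14 over the 16 samples were Retnla, a resistin-like protein of alternatively activated macrophages and airway epithelium (r = 0.89), the serum amyloid Saa3 (0.87) and Lcn2 (0.85). Lcn2 binds bacterial siderophores and is on the neutrophil marker list.

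Several receptor genes lay lower after TiO2 in non-pregnant mice. Every TiO2 sample of Tlr6 was below every PBS sample, as for 2.79% of all genes; the difference was −0.39 ± 0.11 log2 (SE, 4 against 4, unadjusted p = 0.00348, limma adjusted p = 0.387), and −0.44 without the samples of unlike tissue content. Tlr1 was at −0.48 ± 0.19 (limma adjusted p = 0.506) and Ly96 at −0.38 ± 0.15 (0.516). Tlr3 was at −0.37 ± 0.24 (limma adjusted p = 0.696). Without the samples of unlike tissue content Tlr1 was at −0.41, Ly96 at −0.49 and Tlr3 at −0.29. Markers of other cells lay lower in the same comparison: all 8 B cell markers (median −0.62 log2) and all 10 thymocyte and T cell markers (−1.34) were below 0, with 0 called. The thymocyte and T cell sum was high in non-pregnant PBS replicates 3 and 4 only (4630 and 5880). In replicates 1 and 2 it was 677 and 768, against 444 to 706 after TiO2. The summed intensity of 6 fat markers was 1350 to 6210 after TiO2 and 5690 to 11600 after PBS. Their part in these differences was not tested.

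In pregnant mice, Myd88 was lower after TiO2 in every sample than in any PBS sample, as were 1.96% of all genes. The difference was −0.21 ± 0.08 log2 (SE, 4 against 4, unadjusted p = 0.0152, limma adjusted p = 0.824). The neutrophil marker sum lay lower as well, with no overlap (8690 to 11300 against 11700 to 17100), and its part was not tested. Tlr4 was at 0.24 ± 0.13 (adjusted p = 0.85), Tlr8 at 0.26 ± 0.24 (0.907) and Tlr3 at −0.43 ± 0.24 (0.85). Averaged over both states Tlr3 was at −0.40 ± 0.17 (limma adjusted p = 0.846), Tlr6 at −0.25 ± 0.08 (0.698) and Tlr1 at −0.28 ± 0.13 (0.856), where 0% of all genes were called.

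The response to TiO2 did not differ detectably with pregnancy for any of the 10 genes. The interaction was −0.25 ± 0.11 log2 for Myd88 (95% interval −0.49 to −0.02, unadjusted p = 0.0363, limma adjusted p = 0.537), the lowest adjusted p of the 10, where 0.00550% of all genes, which is 1 gene, were called and 3.66% had a negative interaction at an unadjusted p under 0.05. It was 0.39 ± 0.27 for Tlr1 (95% interval −0.18 to 0.96) and 0.38 ± 0.22 for Ly96 (−0.08 to 0.85). It was 0.26 for both Tlr6 (95% interval −0.07 to 0.60) and Tlr4 (−0.13 to 0.65). With values as deposited it was −0.54 for Myd88, 0.16 for Tlr1, 0.13 for Ly96, 0.00 for Tlr6 and −0.03 for Tlr4, with none called. These intervals leave room for differences as large as those described above.

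In the order of group means, the non-pregnant TiO2 group was lowest for Tlr1, Tlr3, Tlr6 and Ly96, and the non-pregnant PBS group for Tlr2, Tlr7, Tlr8, Cd14 and Myd88. Tlr4 was lowest in pregnant mice after PBS. Of the 30 steps between neighbours in these orders, 27 joined groups whose samples overlapped. The 3 others were non-pregnant TiO2 to non-pregnant PBS for Tlr6 (0.39 log2), non-pregnant TiO2 to pregnant PBS for Tlr2 (0.16) and pregnant TiO2 to pregnant PBS for Myd88 (0.21).

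**Figure D4:**
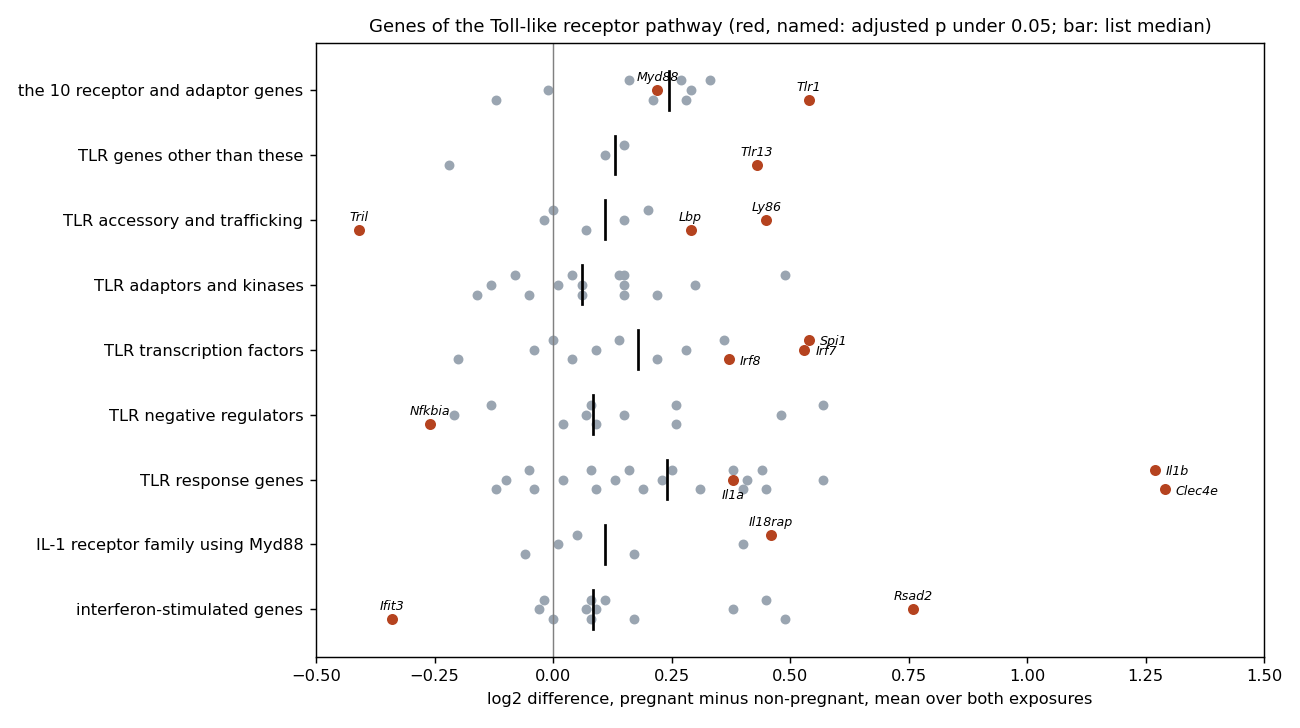
Difference with pregnancy, averaged over exposures, of the 10 genes and of genes around them in the pathway; each point is 1 gene, red points with names passed limma's adjusted p of 0.05, and the bar is the list's median. Il1b (1.27) and Clec4e (1.29) stand farthest to the right, and the called genes of the other lists lie between −0.41 (Tril) and 0.76 (Rsad2).

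Elsewhere in the pathway, between 0 and 3 genes of each list were called with pregnancy. The counts below stand against 1.76% of all genes called as higher and 0.544% as lower. Of 15 adaptors and kinases, among them Irak1, Irak2 and Traf6, 0 were called by limma and 1 passed an unadjusted p under 0.05. Among 4 other Toll-like receptors, Tlr13, which reads bacterial ribosomal RNA, rose by 0.43 ± 0.09 log2 (limma adjusted p = 0.0174), and 0 fell. Of 8 accessory genes 2 rose and 1 fell. Ly86 (MD-1), the partner of Cd180, rose by 0.45 ± 0.09, the endotoxin-binding protein Lbp rose by 0.29 ± 0.07, and Tril, a leucine-rich partner of Tlr3 and Tlr4, fell by 0.41 on the log2 scale. Of 12 transcription factors 3 rose and 0 fell: the myeloid factor Spi1 (PU.1) by 0.54 ± 0.09, Irf7 by 0.53 ± 0.12 and Irf8 by 0.37 ± 0.09. Of 12 negative regulators 0 rose and 1 fell, the NF-kB inhibitor Nfkbia, itself an NF-kB target, by 0.26 on the log2 scale.

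Of 22 genes that Toll-like receptors are known to induce, 3 rose with pregnancy and 0 fell. The cytokine Il1b rose by 1.27 ± 0.10 log2 (SE, 8 against 8, limma adjusted p = 5.52e-05), the myeloid lectin Clec4e by 1.29 ± 0.13 and the cytokine Il1a by 0.38 ± 0.08. Tnf, Il6, Il12b, Il10, Ccl2, Ccl3, Nos2 and Acod1 were never above the array median. Among 6 receptors of the interleukin 1 family, Il18rap, a chain of the interleukin 18 receptor, rose by 0.46 ± 0.10 and 0 fell. Of 14 interferon-stimulated genes, Rsad2 (viperin) rose by 0.76 ± 0.15 and Ifit3 fell by 0.34 on the log2 scale. The medians of these 8 lists ran from 0.06 to 0.24 log2, against 0.01 for all genes and 0.25 for the 10 receptor and adaptor genes.

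After TiO2, none of the genes on these 8 lists passed in either pregnancy state or on average. Il1b had the smallest p among the induced genes, at −0.51 ± 0.10 log2 averaged over both states (limma adjusted p = 0.321), followed by the chemokine Cxcl2 at 0.48 ± 0.13 (0.557). Irf8 was at −0.30 ± 0.09 (0.634).

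Among the 45 pairs of the 10 genes, the closest over the 16 samples was Tlr8 and Cd14, at r = 0.73 and 0.63 with group means removed. Tlr1 and Tlr7 followed at 0.65 (0.58 with group means removed). Tlr6 and Ly96 were at 0.55 by either measure, and Tlr7 and Ly96 went opposite ways at −0.45 and −0.60. With group means removed, Tlr2 was at r = −0.01 to Tlr1 and 0.07 to Tlr6, and Tlr4 at 0.03 to Cd14 and −0.02 to Ly96. These are descriptions over samples that share groups, arrays and normalization.

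**Figure D5:**
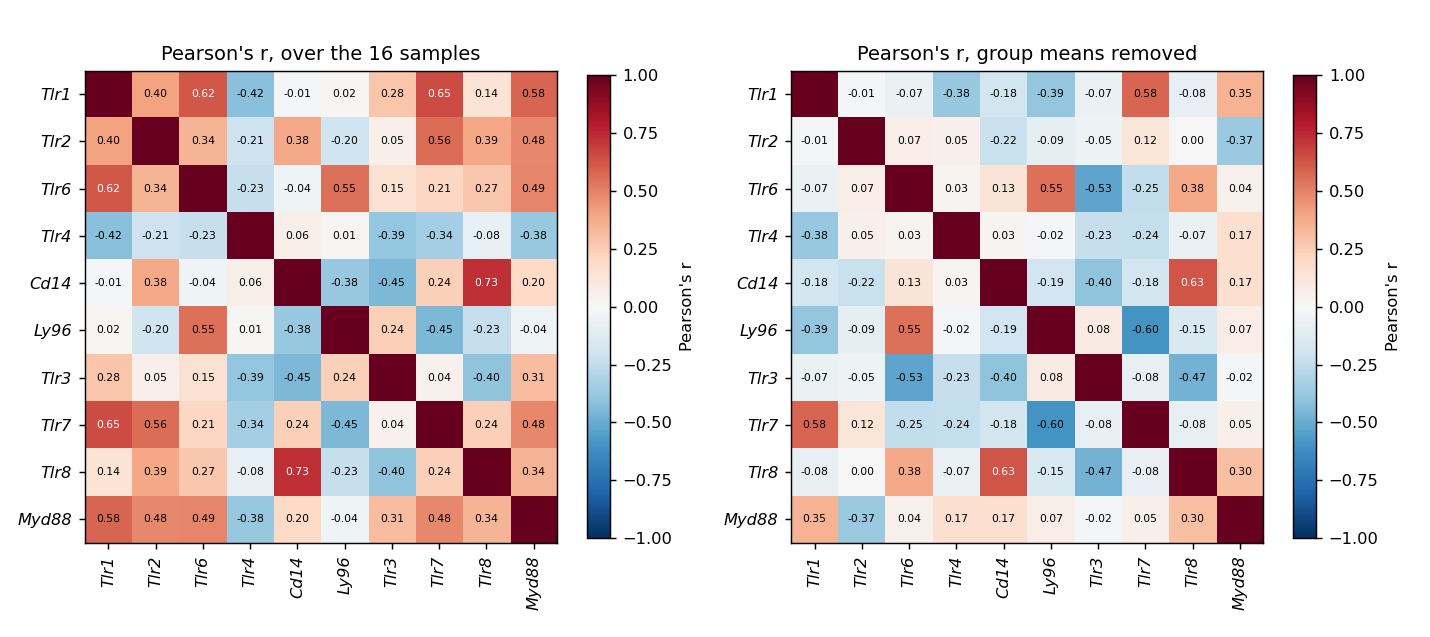
Pearson's r between the 10 genes over the 16 samples, on the left over all samples and on the right with group means removed; red is positive and blue negative. Tlr8 with Cd14 (0.73, 0.63) and Tlr1 with Tlr7 (0.65, 0.58) stay positive in both, while Tlr1 with Tlr6 goes from 0.62 to −0.07.

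The genes most like the other members over the 16 samples were taken from all genes above the median level. For Tlr2 they were 2410004I01Rik (r = 0.88), the interferon-induced membrane protein Ifitm1 (0.84) and Tifab (0.84). For Tlr7 they were Arhgap9 (0.87), the lymphocyte and dendritic cell homing receptor Ccr7 (0.86) and Treml2 (0.85), and for Tlr6 Apobec1 (0.81), the purine receptor P2ry13 (0.80) and Fam83h (0.79). For Tlr8 they were Arhgef3 (0.80), the lectin receptor Cd302 (0.79) and the annexin Anxa3 (0.76). Tlr3 was nearest to Tmem51 (0.80), Zfp408 (0.80) and Snhg4 (0.78), Tlr4 to Zfp180 (0.82), the RNA methyltransferase subunit Mettl14 (0.81) and Pdcl3 (0.80), and Ly96 to Zfp395 (0.88), Glis2 (0.82) and Ralgds (0.78).

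The 10 genes have 16 probe sets with a single symbol, and 7 of the genes have only 1. The others disagreed between their probe sets. For Tlr3 the second probe set correlated with the first at r = −0.22 and lay slightly higher after TiO2, by 0.10 log2 averaged over both states, where the first was at −0.40. The 3 further probe sets of Tlr4 correlated with the chosen one at 0.32, −0.38 and 0.21, and the 2 further ones of Tlr7, which were never above the array median, at 0.06 and −0.14. With at least 1 other probe set the direction turned for Tlr3 after TiO2, for Tlr4 with pregnancy and in the interaction, and for Tlr7 with pregnancy after PBS.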

How the data were processed

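The deposited table holds linear intensity values, 1 per probe set and array. The submitters' processing notes name GCOS, RMA and MAS5; version, order and role: not given in the sources used here. After removal of 64 control probe sets, the remaining 45037 were quantile-normalized, and log2(value + 16) was taken. Per the platform annotation 34958 probe sets had 1 gene symbol and 932 several; 34754 of the first matched the RefSeq gene table (GRCm38.p6), used for names only. All 18193 genes, with no filter, were fitted as 4 group means with limma 3.58.1 in R 4.3.3 (lmFit, eBayes, 12 residual degrees of freedom). Benjamini-Hochberg adjustment ran over all genes within each of 7 contrasts, with a threshold of 0.05; the procedure was tested on simulated data. The number of arrays limits the precision. Groups came from the labels; replicate numbers are accession order. The receptor genes, pathway lists and markers were chosen with earlier results of these data known. Named were all 10 genes, the called genes of each pathway list (or the 2 of smallest p, where none was called) and, for each of the 10, the 3 genes of highest correlation. Alternatives covered normalization, pseudocount, filter, probe set, spread estimate, array weights, the samples in the fit and each array left out. One listed receptor had no probe set of its own. RefSeq promoter windows were searched for 6 of the 10 genes: Tlr1, Tlr2, Tlr3, Tlr6, Tlr8 and Myd88. Windows of Tlr3 and Tlr8 and a further window of Tlr1 also held matches, which are not shown here. Tlr4, Tlr7, Cd14 and Ly96 had 0 windows among the sequences used.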

Additional observations from a re-analysis of the deposited data

Results flagged for a closer look

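Of the 40 sets of 4 samples (10 genes in 4 groups), 2 held a sample far from the other 3, both for Tlr6; chance alone gives about 1 in 20 such sets. In pregnant mice after PBS, replicate 3 was at 6.20 log2 where the other 3 lay between 6.59 and 6.66, a gap of 0.848 of the group's range, past Dixon's critical value for 4 samples at the 95% level. In pregnant mice after TiO2, replicate 2 was at 6.55 where the other 3 lay between 6.32 and 6.35, a gap of 0.87 of the range. The second of these is the sample that nearly lacked squamous epithelium markers.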

How the results depend on the processing

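Of the 10 genes, 2 were called for pregnancy averaged over exposures. The number was 0 with values as deposited, with trimmed-mean scaling, with the probe set of largest variance, with the sample of conflicting labels counted as pregnant PBS and without the 3 samples of unlike tissue content. It was 1 with a pseudocount of 1, 4 with the filter on low values (Tlr1, Tlr2, Tlr6 and Myd88) and 0 to 3 when each array was left out. After PBS, where 0 were called, Myd88 was called (count 1) with a pseudocount of 64, with the filter and with an intensity trend; after TiO2, Tlr1 was called (count 1) with array weights. The count of all genes called for pregnancy was 419, and 57 with values as deposited, 264 with the probe set of largest variance, 32 with the conflicting sample as pregnant PBS and 700 without the 3 samples; leaving out 1 array gave 267 to 687. After PBS it was 92, and 0 (conflicting sample as pregnant PBS) to 162 (without the 3 samples) under the alternatives; after TiO2 it was 141, and 1 (values as deposited) to 565 (array weights). No member was called for TiO2 or the interaction in any of these fits. Directions turned for Tlr3 after TiO2 with its other probe set (0.10 in non-pregnant mice, 0.11 in pregnant mice, 0.10 averaged); for Tlr8 after TiO2 in non-pregnant mice without the 3 samples (−0.01); for Tlr4 in the interaction with values as deposited (−0.03) and with 2 other probe sets (−0.22 and −0.03), and with the same 2 for pregnancy after PBS (0.19 and 0.20) and averaged (0.08 and 0.19). For Tlr4 and pregnancy after TiO2 (0.02) they turned with values as deposited (−0.11), trimmed-mean scaling (−0.00) and other probe sets (−0.22 for that of largest variance, −0.03), and arrays left out gave −0.06 to 0.13. They also turned for Tlr7 and pregnancy after PBS with the probe set of largest variance (−0.14), for Myd88 and pregnancy after TiO2 with values as deposited (−0.02) and for Ly96 averaged with the conflicting sample as pregnant PBS (0.03). With arrays left out, Ly96 averaged ran from −0.06 to 0.06 and Tlr3 after PBS from −0.03 to 0.39. The cause was not tested. Of 1378 values of 51 differences under the alternatives, 1303 kept direction and side of the threshold, 31 reversed, 36 lost a call and 8 gained one. Only the calls of Tlr1 and Myd88 could be lost, since the other differences were not called. With an array left out, the Tlr1 call was kept in 3 of 16 fits and the Myd88 call in 4 of 16. Under the other alternatives they were kept in 4 of 10 and 5 of 10. With values as deposited the median of all genes moved to 0.12 log2 for TiO2 in non-pregnant mice, 0.13 for pregnancy after PBS and −0.19 for the interaction. No paired analysis was possible because replicate numbers are accession order only. Tlr8 was above the array median on 1 of 16 arrays, Tlr1 and Tlr7 on 12, Ly96 on 13 and Tlr6 on 14, which limits their values.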
